A study of Mus musculus with 6 samples.

Results

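Retinoic acid (RA) exposure was examined in the proximal part of the mouse forelimb bud at E10.5. The 1 array of RA-exposed proximal buds was set against the 1 array of control proximal buds, which are 2 of the 6 arrays of the series. The RA-exposed embryos were CD1 with the genotype label WT, and their mothers had been given all-trans RA by mouth at 100 mg/kg at E10.25. The control embryos were CD1 and received no RA; their genotype label is Ring1A-/-, although their sample description calls them wild type and the series design names a Ring1A knockout. RA exposure and the genotype label therefore change together, and their effects cannot be told apart. The other arrays held the distal part of the bud under the same 2 conditions, and both parts of buds lacking Ring1A and Ring1B (dKO; Prx1-Cre; Ring1A-/-; Ring1Bfl/fl, in which the Prx1 promoter drives Cre in limb mesenchyme). The labels do not say whether the buds of several embryos were pooled. With 1 array per group, no difference below has a replicate check, a standard deviation or a p-value, and "higher" and "lower" compare these 2 arrays only.

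RA is made from vitamin A by aldehyde dehydrogenases in the trunk, and it spreads toward the limb bud, where CYP26 enzymes break it down. It binds nuclear receptors of the RAR family, which sit with RXR partners on paired hexamer sequences near target genes. Many direct targets act back on the pathway, among them genes for RA breakdown, retinaldehyde reduction and the receptor RARB. In the early limb, RA from the trunk is associated with proximal genes such as Meis1 and Meis2, while FGF signals from the apical ectodermal ridge are associated with distal ones, and excess RA is a classical cause of limb malformation.

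Transcript levels are given as MAS5 signal, a linear brightness of a probe set, scaled so that the trimmed mean of each array is 500. Signals under the median of an array were set to that median, the floor, which was 63.0 on the proximal RA array and 64.0 on the proximal control array. Each of 18193 genes was read from 1 probe set, the brightest one by mean log2 signal across all 6 arrays. A gene was measured if it was above the floor on at least 1 of the 2 arrays, which held for 11538 genes. A difference is the log2 signal of the RA array minus that of the control array, a fold that ends at a floored signal is a bound, and 2-fold is a difference of 1 or more. Of the measured genes, 426 (3.69%) were 2-fold higher and 784 (6.79%) 2-fold lower in the RA-exposed proximal bud. With the floor at the 25th percentile of each array, 1371 were higher and 1146 lower, so which direction held more genes depended on the floor. Only 5380 genes had at least 2 measured probe sets, and there every probe set was 2-fold higher in 19 genes (0.353%) and 2-fold lower in 56 (1.04%).

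The proximal RA array stood apart from the others before any gene was compared. Its 3'/5' signal ratios, in which a higher value accompanies more degraded or less completely copied RNA, were 1.60 for GAPDH, against 1.28 to 1.39 on the other arrays, and 1.95 for actin, against 1.52 to 1.72. Its brightest probe set reached 26458, against at most 16620 elsewhere. The BioB spike-in read 84.4 and 103 on the proximal and distal RA arrays and 1105 to 1223 on the other 4. Xist, a noncoding RNA expressed from an inactive X, had signals of 12.9 and 29.5 on the proximal and distal RA arrays, against 3017 to 3688 on the others, and the Y-linked Eif2s3y read 2783 proximally and 3064 distally with RA, against at most 12.3 elsewhere. The RA and control arrays thus differ in sex-linked transcripts as well as in exposure and genotype label, and the part of any of these in a gene's difference was not tested. The limb mesenchyme gene Prrx1 had signals of 5750 on the proximal RA and 6876 on the proximal control array, and Tbx5, which marks the forelimb, had 847 with RA and 1450 in control. The hindlimb gene Tbx4 had 77.8 with RA and 60.4 in control, near the floor of each array. Both arrays thus carried forelimb bud markers, as labelled.

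Genes known to respond to RA were higher on the RA array. Of 20 listed genes, 17 were on the array and 16 were measured, and 10 of these were 2-fold higher and 0 lower, against 3.69% and 6.79% of all measured genes. Only 4 of the 16 had at least 2 measured probe sets, and the rest had no second one as a check. Of these 4, 1 (Nrip1) was 2-fold higher at every measured probe set and 1 at only some. All 16 differences were above 0, with a median of 1.26, where the median of all measured genes was 0.01. Cyp26a1, Hic1 and Cdx1 were below the floor in control and measured only through the RA array, so their differences could not lie clearly below 0. After quantile normalization 1 of the 16 genes, Crabp1, was at -0.02. The genes fall into RA breakdown and storage, reception, and transcriptional targets, as follows.

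Cyp26a1, which encodes an enzyme that oxidises RA, had a signal of 1256 in RA-exposed proximal buds and 29.3, below the floor, in control proximal buds, at least 19.6-fold higher. The distal part gave 2358 with RA and 64.8 without, a difference of 5.19. Cyp26b1, the related enzyme normally expressed in the limb, had 3323 with RA and 302 in the proximal control, a difference of 3.46 (11.0-fold). Both hydroxylases were therefore much brighter on the RA array, and each was read by a single probe set. Dhrs3, a retinaldehyde reductase that turns the RA precursor back into retinol, had 5251 in RA-exposed and 738 in control proximal buds, a difference of 2.83, and the distal part gave 2.86. Stra6, which encodes the cellular receptor for retinol-binding protein, had 1051 with RA and 494 without, a difference of 1.09. The proteins that bind RA in the cytoplasm differed less: Crabp2 had 15815 with RA and 9340 in control, and Crabp1 had 12923 with RA and 8764 in control, differences of 0.76 and 0.56.

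Among targets that act in the nucleus, Rarb, the RA receptor whose own gene is an RA target, had a signal of 2814 in RA-exposed and 617 in control proximal buds, a difference of 2.19 (4.56-fold). Its distal signals were 2000 with RA and 117 without, a difference of 4.10, so the RA-exposed levels were near each other in the 2 parts while the control level was higher in the proximal part. Nrip1, a corepressor of nuclear receptors, had 5 measured probe sets, and all 5 were 2-fold higher, with differences of 1.17 to 2.01 in the proximal part and 1.30 to 2.38 in the distal part. The zinc finger repressor gene Hic1 had 263 with RA and 22.1 in the proximal control, a bound of 2.04. Hoxa4, Hoxb4 and Hoxb1 differed by 1.67, 1.42 and 1.35. The listed genes under 2-fold were Rarres2 (0.85), Cdx1 (0.78, a bound), Crabp2, Zfp703 (0.59), Crabp1 and Tgm2 (0.21).

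**Figure D1:**
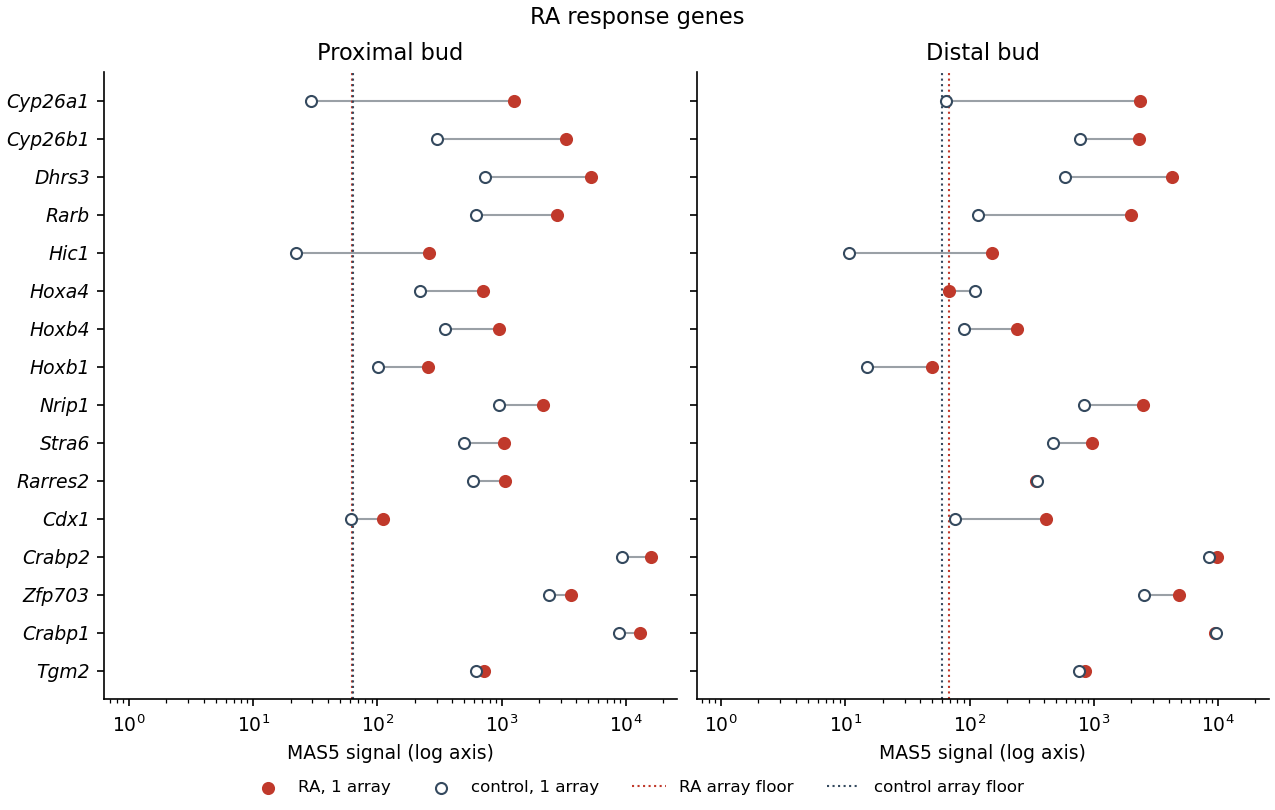
MAS5 signal (log axis) of the 16 measured RA response genes on the RA arrays (filled) and control arrays (open) of the proximal and distal bud, 1 array each, with dotted lines at the array floors. All 16 genes lie further right on the proximal RA array, and Cyp26a1, Hic1 and Cdx1 were below the floor on the proximal control array.

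The promoters of these genes were searched for paired hexamers of the kind that RAR and RXR bind, and those of Rarb and Cyp26a1 are shown because they are the 2-fold higher list genes that hold a pair. Each is 300 bases of RefSeq sequence (GRCm38.p6) around the annotated start, written on the strand of the gene: Rarb at chr14:16575427-16575726 on the minus strand and Cyp26a1 at chr19:37697558-37697857 on the plus strand. Capitals mark the paired hexamers.
Rarb: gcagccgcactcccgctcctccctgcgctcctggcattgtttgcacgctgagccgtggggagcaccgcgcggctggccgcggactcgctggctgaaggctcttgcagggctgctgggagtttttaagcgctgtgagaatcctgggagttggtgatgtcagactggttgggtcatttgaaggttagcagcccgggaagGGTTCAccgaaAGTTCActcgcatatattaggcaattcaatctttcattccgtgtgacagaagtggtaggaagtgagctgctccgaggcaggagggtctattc
Cyp26a1: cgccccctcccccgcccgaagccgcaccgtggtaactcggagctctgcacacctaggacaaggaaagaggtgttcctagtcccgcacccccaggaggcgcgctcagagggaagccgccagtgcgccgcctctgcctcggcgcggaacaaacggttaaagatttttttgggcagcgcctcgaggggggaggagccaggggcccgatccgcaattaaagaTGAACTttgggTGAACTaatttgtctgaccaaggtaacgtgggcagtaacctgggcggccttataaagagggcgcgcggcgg
The search took the hexamer AGGTCA and the closely related hexamers AGTTCA, which both pairs use, GGGTCA, which none shown here uses, and GGTTCA, which opens the Rarb pair, always 2 copies in one orientation with 5 or 2 bases between them, on both strands. In Rarb the pair has 5 bases between the hexamers and begins at -53 from the start on the strand of the gene, and in Cyp26a1 it has 5 bases between them, begins at -32 and lies on the opposite strand, so the letters shown are its reverse complement. Each promoter held 1 pair, which overlapped no other. Of all 27025 promoters in the table, 0.115% held a pair with 5 bases between, 0.311% with 2 and 0.426% either. Among the 9 2-fold higher list genes with a promoter in the table, 2 held one. None was found in the 18 promoters of genes with every probe set 2-fold higher or in the 43 with every probe set 2-fold lower. A match is a description of letters in this window and says nothing of binding.

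Genes for making RA held no 2-fold differences in the proximal part. Of 16 listed synthesis and transport genes on the array, 7 were measured and 0 were 2-fold higher or lower, against 3.69% and 6.79% of all measured genes; Rdh10, which encodes the retinol dehydrogenase of the early embryo, had 358 with RA and 432 in control proximal buds. The dehydrogenase gene Aldh1a2 was not above the floor on either proximal array. Of 14 measured receptors and cofactors, 2 were 2-fold higher and 2 lower, against 3.69% and 6.79% of all measured genes. Rarg, the receptor gene prominent in limb mesenchyme, had 1996 with RA and 969 in control, a difference of 1.04, with 0.66 at its second probe set and -0.30 in the distal part. Nr2c1, an orphan nuclear receptor gene, differed by 1.11 but ranged from -0.81 to 1.11 over its 4 probe sets. Ncoa2, a receptor coactivator, had -1.07 at its brightest probe set and 0.13, a bound, at the highest of its 3. For Fabp5, a fatty acid-binding protein that can carry RA to another receptor, the differences were -1.05 and -0.13. Of these 4 genes, the probe sets of Rarg and Fabp5 shared a sign and those of Nr2c1 and Ncoa2 did not.

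Hox genes differed in both directions. The clustered Hox genes encode transcription factors whose order along the chromosome follows their order along the body axis, and RA is known to act on the anterior ones. In the HoxB cluster, all 7 measured genes were above 0 in the proximal part, with a median of 1.17, and 4 were 2-fold higher, against 3.69% of all measured genes. Hoxb4 had signals of 945 with RA and 352 in control (second probe set 0.65, a bound), Hoxb1 had 257 with RA and 101 in control, Hoxb2 had 194 with RA and 82.1 in control, and Hoxb6 had 674 with RA and 300 in control. The brightest HoxB genes, Hoxb5 with 3248 with RA and 1699 in control and Hoxb3 with 2315 with RA and 1179 in control, were just under 2-fold at 0.93 and 0.97. Distal differences were larger for these 2 genes, 1.94 for Hoxb5 and 2.97 for Hoxb3. Hoxb9 stood at 95.6 with RA and 90.5 in control.

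The HoxA cluster held genes 2-fold in both directions. Hoxa4 had 704 in RA-exposed and 222 in control proximal buds, a difference of 1.67. In the distal part it was below the floor with RA (67.9) and had 110 in control, a bound of -0.69. Hoxa5 had 1400 with RA and 515 in control, a difference of 1.44, but its second probe set gave -0.73. At the other end of the cluster, Hoxa11 had 628 with RA and 1500 in control, a difference of -1.26, and Hoxa10 had 1120 with RA and 2824 in control, a difference of -1.33, with 0.17 at its dimmer second probe set. At their brightest probe sets, Hoxa4 and Hoxa5 were thus 2-fold higher and Hoxa10 and Hoxa11 2-fold lower, with a second probe set at odds for Hoxa5 and Hoxa10. In the HoxD cluster Hoxd11 had 331 with RA and 1032 in control, a difference of -1.64. Hoxd13, which marks the tip of the bud, had 700 with RA and 1247 in control, a difference of -0.83. Hoxd9 and Hoxd10 differed by 0.10 and -0.37. None of the 5 measured HoxC genes was 2-fold either way in the proximal part (-0.61 to 0.63), where Hoxc4 had -0.34, against 1.08 in the distal part.

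**Figure D2:**
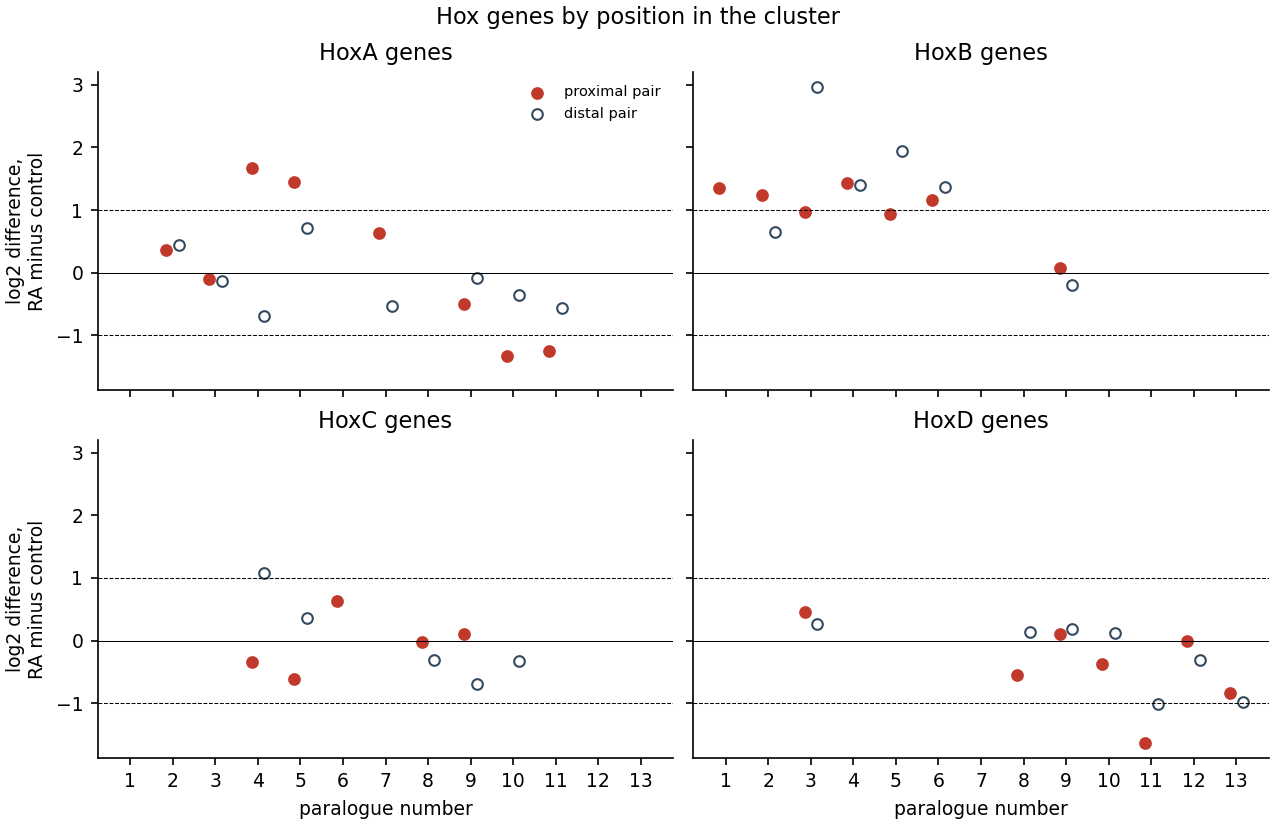
Log2 difference, RA minus control, of the measured Hox genes of each cluster against paralogue number, for the proximal (filled) and distal (open) pair of arrays, 1 probe set per gene and dashed lines at 2-fold. HoxB genes lie above 0 in the proximal pair, and Hoxa10, Hoxa11 and Hoxd11 lie at -1.33, -1.26 and -1.64.

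Few genes known for proximal limb identity were 2-fold either way in the proximal part. Of 13 measured genes, 1 was 2-fold higher and 1 lower, which is near the 3.69% and 6.79% of all measured genes, and the median was -0.17, against 0.19 in the distal part. Meis2, a TALE homeobox gene that marks the proximal limb, had 4 measured probe sets that disagreed. With RA their signals were 2207, 4890, 746 and 2277, and in control proximal buds 939, 2941, 845 and 3046, giving differences of 1.23, 0.73, -0.18 and -0.42. All 4 were higher with RA in the distal part, by 1.34 to 2.73. Meis1 likewise gave 1.15 at 1 probe set (754 with RA and 339 in control) and -0.71 at its brightest (375 with RA and 614 in control), whereas its distal differences at these probe sets were 1.94 and 0.98. The direction for Meis1 and Meis2 in the proximal part thus depended on the probe set read.

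Meis3, of the same family, had 256 in RA-exposed and 108 in control proximal buds, a difference of 1.25 at its 1 measured probe set. Irx3, an Iroquois gene of the proximal limb, had 1804 with RA and 2018 in control, a difference of -0.16, against 1.51 in the distal part where the control signal was 160. Zbtb16, a zinc finger gene needed for proximal skeletal elements, had 384 with RA and 1468 in control, a difference of -1.93, with -0.81 at its second probe set and 0.91 in the distal part. The short stature gene Shox2, which patterns the upper limb, had 0.05 at its brightest probe set and -1.79 at the other. Pbx2 and Pbx3, cofactors of Meis proteins, differed by -0.17 and -0.10. No proximal gene with several probe sets was 2-fold higher at all of them.

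Genes known for distal limb identity were mostly lower. Of 17 measured, 9 were 2-fold lower and 0 higher, against 6.79% of all measured genes lower, with a median of -1.03, and the distal part had 1 lower and a median of -0.36. The list shares genes with the Hox lists above. Among the 9 are Hoxd11 and Hoxa10, and the second probe set of Hoxa10 gave 0.17. Msx1, a homeobox gene of the growing tip, had 1013 in RA-exposed and 3115 in control proximal buds at 1 probe set (-1.62) and 164 with RA and 770 in control at the other (-2.23). Tfap2a, a transcription factor of ectoderm and distal mesenchyme, had 410, 308 and 438 with RA at its 3 probe sets and 1708, 807 and 890 in control, differences of -2.06, -1.39 and -1.02. Every measured probe set of these 2 genes was thus 2-fold lower. For Lhx9, a LIM homeobox gene of distal mesenchyme, the 4 probe sets ranged from -3.06 to -0.72, with 982 with RA and 4192 in control at the brightest.

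Several distal genes had 1 measured probe set. Sall1, a spalt zinc finger gene, had 313 with RA and 1616 in control proximal buds, a difference of -2.37, against 2252 with RA and 3244 in control in the distal part. Its paralogue Sall3 was below the floor with RA (44.8) and had 272 in control, a bound of -2.11. Lmo1, which encodes a LIM-only cofactor, had 376 with RA and 770 in control, a difference of -1.03. For Sall1, Sall3 and Lmo1, the proximal control signals were thus well above the floor, and the proximal RA array was lower for each. Sall4 and Lix1, with -0.24 and -0.19, and Msx2, with 0.47, were under 2-fold. Hoxd12 had 63.5 with RA and was below the floor in the proximal control (46.5), a bound of -0.01. In bulk tissue, fewer cells of a type and less RNA per cell cannot be told apart, and the plane at which each bud was divided was not measured.

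Signalling genes of the ridge and its targets were mostly lower in the proximal RA sample. Of 16 measured FGF ligands, receptors and response genes, 12 were below 0, 4 of them 2-fold lower, and 0 were 2-fold higher, against 6.79% lower and 3.69% higher among all measured genes, with a median of -0.63. Etv5, an ETS factor induced by FGF, had 586 with RA and 1804 in control at its brightest probe set, and all 3 were 2-fold lower (-1.66 to -1.16, bounds at the other 2). The feedback inhibitors Spry2 and Spry4 had 341 and 218 with RA and 1064 and 710 in control, differences of -1.64 and -1.71, with the 3 Spry4 probe sets spread from -3.08 to -0.19, the last of them a bound. Spred1 had 7 measured probe sets, all below 0, from -1.57 to -0.45. The phosphatase gene Dusp6 differed by -0.81, and Spred2 had -1.22 at its brightest of 3 probe sets but 0.61 at the highest. The receptor genes Fgfr1 and Fgfr2 differed by -0.37 and 0.68. FGF feedback genes with several probe sets therefore gave negative differences throughout for Etv5, Spry4 and Spred1 and mixed ones for Spred2.

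Sp8, a zinc finger gene of the ridge, was below the floor with RA (58.7) and had 604 in the proximal control, a bound of -3.26, and its distal signals were 1078 with RA and 1550 in control. Fgf4, a ridge ligand, was below the floor with RA (39.1) and had 92.7 in control. Other epithelial markers did not share the size of the Sp8 difference. Of 19 measured surface ectoderm and ridge markers, 2 were 2-fold lower (Sp8 and Wnt7a) and 0 higher, near the 6.79% lower of all measured genes, and their summed signal was 19291 with RA and 19786 in control. Epcam, which marks epithelium, had 838 with RA and 834 in control. Cdh1 had 716 with RA and 1186 in control.

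Of 20 measured WNT pathway genes, 16 were below 0, 5 of them 2-fold lower, and 0 were 2-fold higher, against 6.79% lower and 3.69% higher among all measured genes, with a median of -0.36. Frzb, a secreted WNT antagonist, had 564 in RA-exposed and 2014 in control proximal buds (-1.84), and its second probe set was also lower (-1.03). Rspo2, which amplifies WNT signals and is needed for the ridge, had 192 with RA and 577 in control, a difference of -1.59. Wnt7a, the dorsal ectoderm ligand, had 130 with RA and 306 in control, a difference of -1.24. For Wnt5a, a ligand of the distal mesenchyme, 375 with RA and 763 in control gave -1.02, with its 4 probe sets at -1.09 to -0.60. The target gene Axin2 had -0.40. The antagonist gene Nkd1 was the fifth at 2-fold lower (-1.02) but had a probe set at 0.26, a bound.

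Smad7, an inhibitor of TGF-beta and BMP signalling, gave the most negative difference of the pathway lists but rested on 1 of 2 probe sets. Its brightest probe set had 74.1 with RA and 2328 in the proximal control, a difference of -4.97, against 0.31 in the distal part, while the second had 516 with RA and 720 in control, a difference of -0.48. Id2, a BMP response gene, had 1230 with RA and 3163 in control at its brightest probe set, a difference of -1.36, and 0.55 at the other. Tgfbr1 had 1785 with RA and 3867 in control, a difference of -1.12, and the ligand gene Tgfb2 had 3042 with RA and 1175 in control, a difference of 1.37 with its 4 probe sets at 0.07 to 1.37. In all, 13 of the 17 measured genes of this list were below 0, 3 of the 17 were 2-fold lower and 1 higher, against 6.79% and 3.69% of all measured genes. The ligand Bmp4 differed by -0.48.

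Genes of the anterior-posterior axis did not share a direction. Grem1, a BMP antagonist of the posterior mesenchyme, had 80.9 in RA-exposed and 357 in control proximal buds, a difference of -2.14, and Shh had 64.0 with RA and 130 in control, a difference of -1.02 that ended just above the floor. Hand2, which acts upstream of Shh, had 1164 with RA and 2290 in control (-0.98), with 0.36 at its second probe set. The Shh targets Ptch1 and Gli1 differed by 0.35 and 0.37. Tbx2, a T-box gene of the anterior and posterior margins, had 1224 with RA and 219 in control, a difference of 2.48, and 1.72 in the distal part.

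Genes of somite and body wall tissue, which border the proximal bud, differed in both directions. Of 9 measured, 6 were 2-fold higher and 3 lower at their brightest probe sets, so none was under 2-fold there, against 3.69% higher and 6.79% lower among all measured genes. Meox1, a homeobox gene of the somites, had 2453 in RA-exposed and 289 in control proximal buds, a difference of 3.08, against 0.94 in the distal part. Foxc2 and Foxc1, forkhead genes of paraxial mesoderm, had 1358 and 662 with RA and 207 and 140 in control, differences of 2.71 and 2.24, with a bound of 0.70 at the second Foxc1 probe set. Distal Foxc2 signals were 1412 with RA and 93.7 without, a difference of 3.91. The somite gene Tcf15 had 1776 with RA and 773 in control (1.20), and Foxd2 had 394 with RA and 110 in control (1.84). Pax1, a sclerotome and shoulder girdle gene, had 1280 with RA and 591 in control (1.11), with 0.46 at its second probe set. At their brightest probe sets, these 6 genes were thus brighter on the proximal RA array. Of the 5 listed genes with at least 2 measured probe sets, 0 were 2-fold higher at all of them, 2 (Foxc1 and Pax1) at only some, and 2 were 2-fold lower at all.

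Lower genes of the same list were Tbx18, a T-box gene of somites and limb mesenchyme, with 265 in RA-exposed and 1678 in control proximal buds (-2.66 at its brightest of 2 probe sets, both 2-fold lower), Meox2 with 345 with RA and 1069 in control (-1.63 and -1.15), and the tendon gene Scx with 74.8 with RA and 240 in control (-1.68, with a bound of 0.29 at a second probe set). The summed signal of the list was 8632 with RA and 5136 in control proximal buds, and 3320 with RA and 2850 in control in the distal part. Pax9, Uncx, Mesp2, Nkx3-2 and Tbx6 were not above the floor on either proximal array. Wt1, a mesothelial and body-cavity gene, had 416 with RA and 16.4 in control, a bound of 2.70, whereas the mesothelial genes Upk3b and Msln were below the floor on both. With no floor, where members below it also count, the list median was 0.13. The share of body wall tissue in each sample was not measured, and its part in these differences was not tested.

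**Figure D3:**
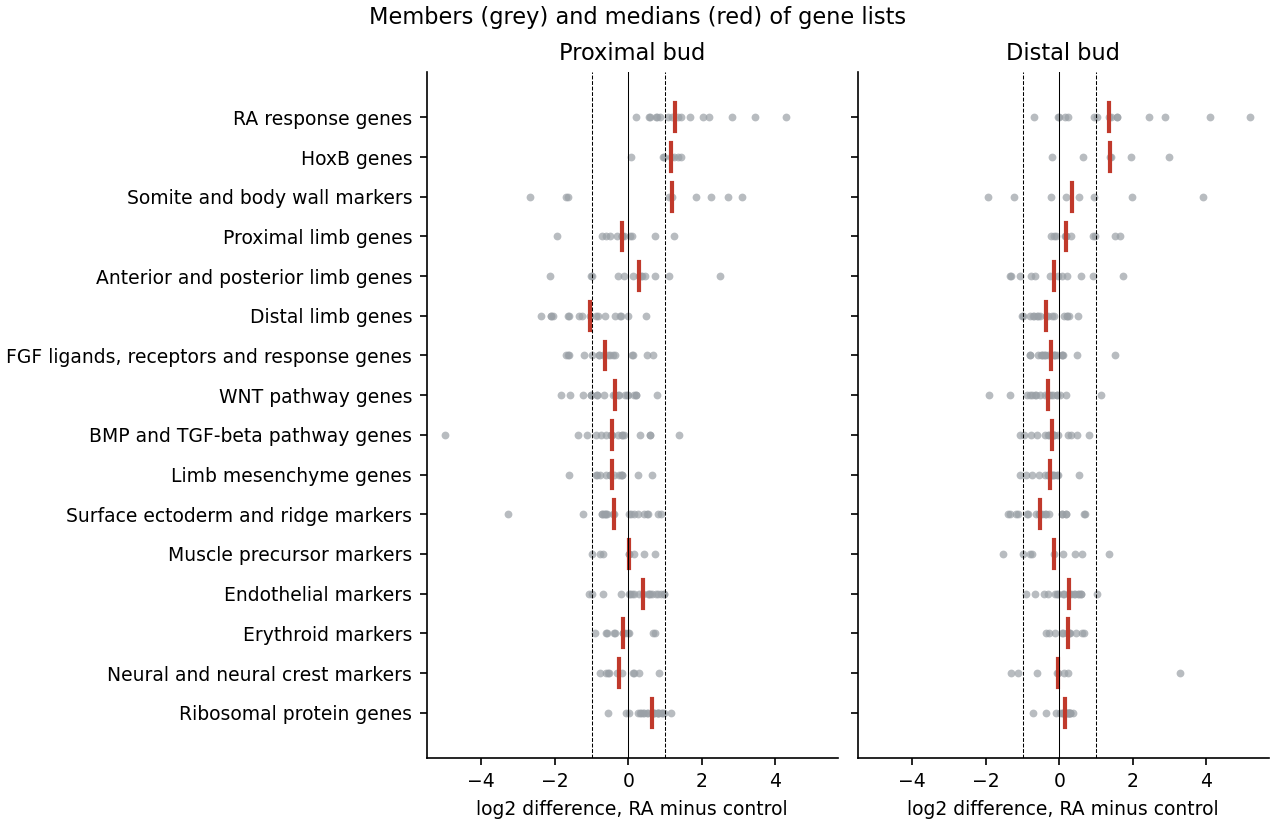
Log2 difference, RA minus control, of the measured members (grey points) and median (red bar) of 16 gene lists in the proximal and distal bud, with dashed lines at 2-fold. In the proximal part the median was 1.26 for RA response genes, 1.17 for HoxB, 1.20 for somite and body wall genes and -1.03 for distal limb genes.

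At their brightest probe sets, none of the measured muscle precursor (8), erythroid (12) and neural (10) markers was 2-fold higher or lower. Among all measured genes 3.69% were higher and 6.79% lower, so lists this short would hold few. Of the 8 muscle markers, 5 were above 0 and 3 below. Lbx1 had 1824 with RA and 1355 in control, a difference of 0.43, with -0.44 at its second probe set. Pax3 had 552 with RA and 1096 in control, with 3 probe sets at -0.99 to -0.13. Sox10, the defining neural crest gene, was below the floor on both arrays. Summed signals were 5700 with RA and 6379 in control for muscle precursors, 54461 with RA and 43081 in control for erythroid cells, and 2711 with RA and 2918 in control for neural cells. The erythroid sum was carried by the bright globin genes Hba-x, with 14290 with RA and 8909 in control, and Hbb-bh1, with 16388 with RA and 9881 in control, whereas 9 of the 12 erythroid markers were below 0, with a median of -0.15. Of 19 endothelial markers, 15 were above 0, with a median of 0.41, and 0 were 2-fold higher; Ets1 had -1.06 at its brightest probe set, but its 4 probe sets were 2-fold in opposite directions. Csf1r, a macrophage receptor gene, had 231 with RA and 102 in control, a difference of 1.18, with its 3 probe sets at 0.47 to 1.18. The macrophage list summed to 1848 with RA and 1293 in control. Of 9 measured genes listed for cartilage formation and its regulation, 2 were 2-fold higher (Col2a1 and Snai1) and 2 lower (Sox5 and Sox6), against 3.69% and 6.79% of all measured genes. For Sox5 only 1 of 3 measured probe sets was 2-fold lower (-1.20), and the highest gave 0.19. Col2a1, the main cartilage collagen, had 3002 with RA and 947 in control, a difference of 1.66, Sox9 had 813 with RA and 729 in control, and Sox6 was 2-fold lower at all 3 measured probe sets (-1.56 to -1.20).

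The targeted Polycomb genes of the series bear on the genotype label. Ring1, which encodes RING1A, had signals of 420 on the proximal RA array, labelled WT, and 624 on the proximal control array, labelled Ring1A-/-, a difference of -0.57. Distal signals were 245 with RA and 968 in control. Of RA and control, the control arrays, labelled Ring1A-/-, thus had the higher Ring1 signal in both parts. The dKO arrays, also Ring1A-/-, had 402 in the proximal and 578 in the distal part, so the knockout label did not go with a higher signal throughout. The position of the probe set relative to the deleted part was not analysed here, so the label was not tested by it. Rnf2, which encodes RING1B, had 1941 with RA and 2042 in control. At their brightest probe sets, none of 26 measured PRC1 and PRC2 genes was 2-fold higher or lower, against 3.69% and 6.79% of all measured genes. Of the 16 with at least 2 measured probe sets, 2 had only some 2-fold higher and 5 only some 2-fold lower.

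Genes whose measured probe sets were all 2-fold higher included membrane and secreted proteins as well as the corepressor gene Nrip1. Dpep1, a membrane dipeptidase, had 934 in RA-exposed and 209 in control proximal buds, with differences of 2.12 and 2.16 at its 2 probe sets. Prap1, a secreted protein, had 570 with RA and 104 in control (1.96 and 2.46), and Spsb1, a SOCS-box adaptor, had 5242 with RA and 984 in control (1.61 and 2.41). The distal part gave bounds of 1.37 and 1.42 for Dpep1, 3.35 and 3.38 for Prap1 and 2.23 and 2.41 for Spsb1, so these 3 were 2-fold higher at every measured probe set of both parts. Fndc5, the source of irisin, had 432 with RA and 142 in control, with differences of 1.60 and 2.45. Camk2n1, a CaMKII inhibitor, had 361 with RA and 153 in control (1.23 and a bound of 2.45), and the collagen gene Col23a1 had 2040 with RA and 731 in control, with 3 probe sets at 1.17 to 1.63.

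Other genes were 2-fold higher at every probe set of the proximal part but not of the distal part. Plxna2, a semaphorin receptor gene, had 1275 with RA and 388 in control proximal buds, with 3 probe sets at 1.44 to 2.96, against -0.17 to -0.11 in the distal part. Foxp4, a forkhead gene, had 6520 with RA and 2478 in control (1.40 and 1.55), against 0.04 at both distal probe sets. Dlk1, an imprinted inhibitor of Notch signalling, had 8549 with RA and 3711 in control (1.20 and 2.01), with 0.03 and 1.32 in the distal part. The difference between parts was not tested for these genes. Ager, Ptpn21, the kinase gene Fyn, Phka1 and Nudt22 complete the 15 ranked first by their least different probe set, with 1.16 to 1.44 over all their probe sets.

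Genes lower at every measured probe set were led by Xist, given above. Vegfd, an X-linked growth factor of lymphatic vessels, had 245 in RA-exposed and 1445 in control proximal buds, with 3 probe sets at -2.94 to -2.56, and -1.56 to -1.13 in the distal part. Zic5, a zinc finger gene, had 206 with RA and 971 in control (-2.55 and -2.24), against 0.39 and 0.18 in the distal part. Cbln1, a secreted synaptic organiser, had 106 with RA and 731 in control, with 3 probe sets at -2.78 to -2.12, 2 of them bounds, and distal values of -0.93 to -0.38. Vegfd was thus lower at every probe set of both parts, while Zic5 was slightly higher in the distal part. Tmem123, Klhl2 and Socs2, a cytokine signal suppressor, had 283, 281 and 274 with RA and 1082, 934 and 963 in control. Itm2a, an X-linked membrane protein of cartilage precursors, had 617 with RA and 1870 in control (-1.60 and -2.49). Adi1, of the methionine salvage pathway, had 168 with RA and 1626 in control at its brightest probe set (-3.28), with 3 probe sets at -4.36 (a bound) to -1.55 and distal values of -3.38 to -0.13. Msx1 and Tbx18, given above, also belong here, and the other ranked genes, D030056L22Rik, Csf2rb, Fam13c and Snhg14, spanned -2.14 to -1.59.

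**Figure D4:**
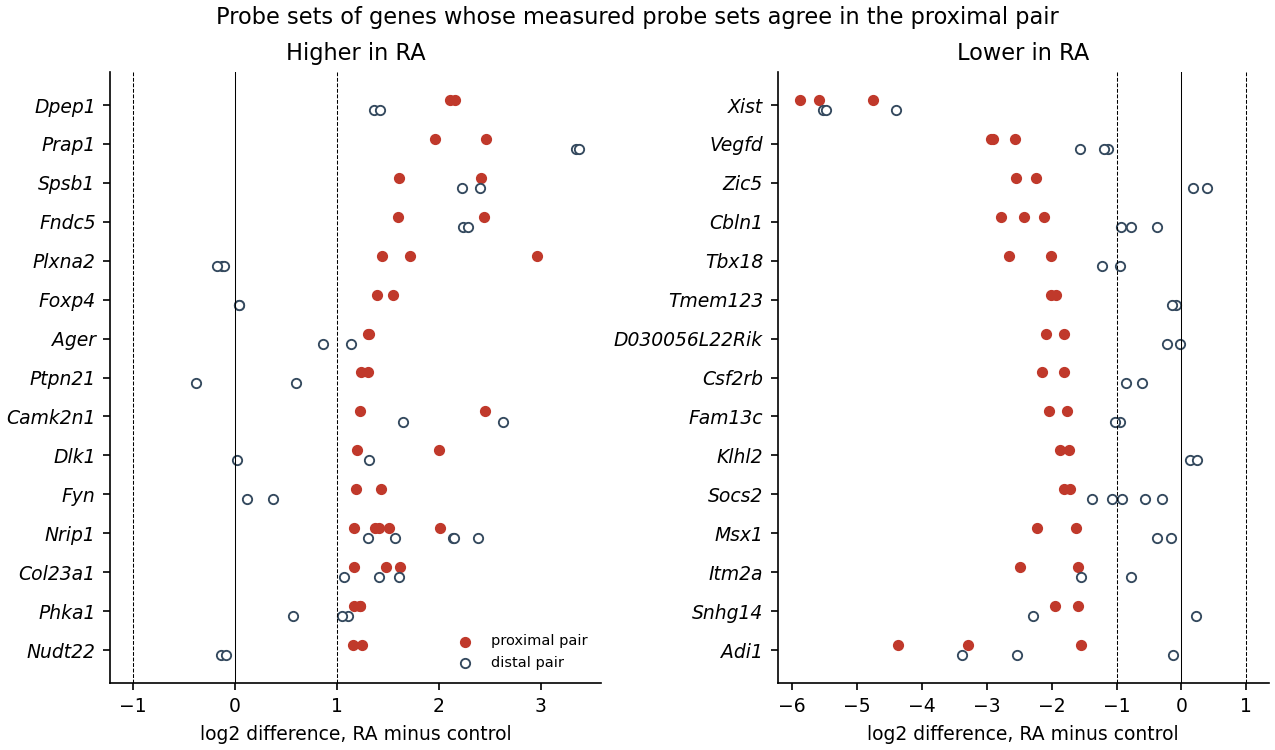
Log2 difference, RA minus control, of each measured probe set of the 15 genes higher (left) and 15 lower (right) at every probe set of the proximal pair, with the proximal pair filled, the distal pair open and dashed lines at 2-fold. All filled points lie beyond 2-fold by selection, while open points of Plxna2, Foxp4 and Zic5 lie near 0, between -0.17 and 0.39.

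Wide differences were also found at genes with no second measured probe set, which therefore lack this check. Besides Eif2s3y (a bound of 5.44), Cyp26a1 and Cyp26b1, these were Tmem87a, a Golgi membrane protein gene, with 1059 on the proximal RA array and 34.5 on the control array, at least 16.5-fold higher, Tmem132e with 783 with RA and 51.8 in control (at least 12.2-fold), the casein gene Csn3 with 958 with RA and 88.2 in control (10.9-fold), Ephx1, an epoxide hydrolase gene, with 595 with RA and 57.2 in control (at least 9.31-fold), and Zfp874a with 591 with RA and 4.49 in control (at least 9.23-fold). On the distal RA array Tmem87a, Csn3, Zfp874a and Tmem132e had 1217, 2366, 403 and 248, and all 4 were below the floor on the distal control array, with bounds of 4.35, 5.31, 2.76 and 2.06. Ephx1 was not above the floor on either distal array. Among lower genes of this kind, Mab21l2, a limb and eye gene, had 191 with RA and 1363 in control (-2.84), with -2.10 in the distal part. Zfp326 had 173 with RA and 1239 in control (-2.84), Ovca2 had 92.1 with RA and 634 in control (-2.78), Kbtbd6 had 71.1 with RA and 437 in control (-2.62), Polr3gl had 89.8 with RA and 520 in control (-2.53), and Tac1, a tachykinin gene, had 63.1 with RA and 362 in control (-2.52). Tfap4 was below the floor with RA (43.7) and had 442 in control, a bound of -2.81. Distal differences were -0.99 to -0.16 for Zfp326, Ovca2, Kbtbd6, Polr3gl and Tfap4, and Tac1 was below the floor on both distal arrays.

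Agreement between probe sets of a gene was lower here than in the other 2 comparisons read the same way. Of the 164 genes 2-fold higher at their brightest probe set and with another one measured, 19 (11.6%) had every probe set 2-fold higher and 98 (59.8%) had all on one side of 0. For the 419 lower genes the counts were 56 (13.4%) and 266 (63.5%). The shares with every probe set 2-fold were 37.0% and 24.4% for RA in the distal part and 34.7% and 41.7% for the dKO in the proximal part. In the proximal RA comparison 46 of 5380 genes (0.855%) had probe sets 2-fold in opposite directions, against 0.169% with RA in the distal part and 0 genes in the proximal dKO. A further 351 genes (6.52%) had only some probe sets 2-fold higher and 1049 (19.5%) only some 2-fold lower, and in 3859 (71.7%) no probe set was 2-fold, against 88.4% with RA in the distal part and 95.5% in the proximal dKO. The median gap between the highest and lowest probe set of a gene was 0.71, against 0.39 with RA in the distal part and 0.24 in the proximal dKO, which shares the proximal control array.

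Siva1, an apoptosis adaptor gene, had the widest opposite probe sets, from -4.32 to 1.41. Tomm7, a mitochondrial import gene, ranged from -3.05 to 1.06, and Sox11, a neural and mesenchymal transcription factor gene, from -2.16 to 1.19 over 6 probe sets. Slc35c2 ranged from -1.91 (a bound) to 1.73, and Ets1 from -1.06 to 2.37. No direction is given for these 5 genes. In the distal part the probe sets of Siva1 lay between -0.88 and 0.10 and those of Tomm7 between -0.24 and 0.08. Rps9, a ribosomal protein gene, had 0.96, 0.08 and -3.86 at its 3 probe sets, and the lowest of these was also low with RA in the distal part (-3.40).

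Brighter genes were shifted upward and mid-range genes spread widely. In genes with a mean signal over 3000, the median difference was 0.25, with 59 genes 2-fold higher and 24 lower. Between 100 and 300, the median was -0.09, with 158 (7.51%) higher and 283 (13.4%) lower. With RA in the distal part, 0 genes over 3000 were 2-fold either way, and the median there was 0.05. The middle 50% of all measured genes spanned -0.41 to 0.39 in the proximal part and -0.28 to 0.16 in the distal part. Ribosomal protein genes, which are among the brightest on the array, had a median of 0.66 in the proximal part, which became -0.10 after quantile normalization, so no direction is given for them.

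**Figure D5:**
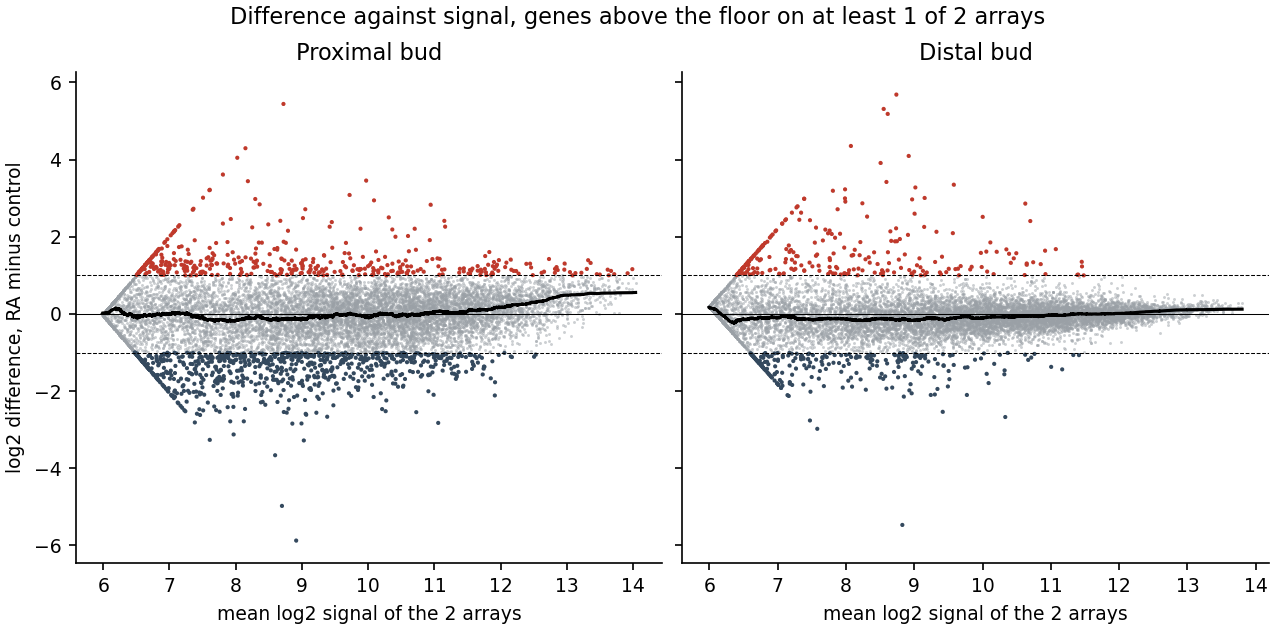
Log2 difference, RA minus control, against mean log2 signal for measured genes of the proximal and distal pair of arrays, with genes 2-fold higher in red, 2-fold lower in dark blue, a running median in black and dashed lines at 2-fold; the slanting edges at the left are genes at the floor on 1 array. The running median bends upward at high signal in the proximal pair, where genes over 3000 have a median of 0.25, against 0.05 in the distal pair.

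The distal pair of arrays shares no array with the proximal pair and gives a second view of the same exposure and label difference. Both RA arrays also share the low BioB reading and the sex-linked difference given above, and the part of these in the overlap was not tested. Of 11092 genes measured in both parts, 397 were 2-fold higher in the proximal and 225 in the distal part, and 99 were in both, 24.9% of the proximal and 44.0% of the distal list. For lower genes the counts were 780, 233 and 110, or 14.1% and 47.2%. Of all 11395 genes measured in the distal part, 2.18% were 2-fold higher and 2.13% lower. The distal difference had the same sign for 315 (79.3%) of the proximal higher genes and 552 (70.8%) of the lower ones. The median distal difference of all genes measured there was -0.04, so negative signs were the more common ones before any selection. Of the 19 genes with every probe set 2-fold higher in the proximal part, 14 had the same sign and 10 were 2-fold higher in the distal part, and of the 56 lower ones 47 and 12. In the distal part itself, every probe set was 2-fold higher in 27 genes (0.507%) and 2-fold lower in 22 (0.413%). The genes in both include the sex-linked pair Xist and Eif2s3y. Cyp26a1, Cyp26b1, Dhrs3, Rarb, Nrip1, Hic1, Hoxb4 and Stra6 were 2-fold higher in both. The distal limb genes Sall1, Lhx9 and Msx1, 2-fold lower in the proximal part, had distal differences of -0.53, -0.20 and -0.16, and the difference between the parts was not tested.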

How the data were processed

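RNA of 6 samples, 1 array for each of 2 parts and 3 conditions, was measured on 1-colour Affymetrix arrays. The deposited values are signal intensity on a linear scale made with MAS5, per the submitters' processing notes; the MAS5 version was not given in the sources used here. Each array has a mean of 500 without its highest and lowest 2% of 45101 probe sets. The table holds no detection calls, and the number of arrays limits the precision.

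The platform annotation gave 34945 non-control probe sets 1 gene symbol and 932 several, and 9211 had no listed gene. Gene IDs of 34741 matched RefSeq, and 0 symbols changed. Floor, log2 difference, 1 probe set per gene and probe set agreement were computed with pandas 2.3.3 and numpy 2.4.6, and the counting was checked on simulated data. No test was possible with 1 array per group. Members, 34 gene lists and the naming rule were chosen with earlier results of these data known. The text names the 15 genes each way whose probe sets all were 2-fold, ranked by the smallest difference, the 8 each way with 1 measured probe set, the 5 with the widest opposite probe sets, Ring1, Rnf2 and list members (extremes and genes a pathway sentence needs). Rps9 and the genes 2-fold in opposite directions in the 2 parts were chosen after their values were seen. Alternatives changed the scaling, floor, probe sets and threshold.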

Additional observations from a re-analysis of the deposited data

Results flagged for a closer look

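Of the genes measured in both parts, 7 were 2-fold in opposite directions with RA in the proximal and the distal bud. The difference between the parts was not tested, since each value rests on 1 RA and 1 control array. Higher in the proximal and lower in the distal part were Pou4f1, a POU homeobox gene of sensory neurons, with 1.27 and -1.63, and Diras2, a small GTPase gene, with 1.84 and -1.61, both of them bounds. Proximal Pou4f1 signals were 309 with RA and 129 in control, and distal ones 103 with RA and 318 in control; a second proximal probe set gave -0.10. Lower in the proximal and higher in the distal part were Adamts4, an extracellular protease gene, with -1.14 and 1.48, Dhtkd1 with -1.01 and 1.004, Fam241a with -1.44 and 1.02, Hpse2 with -1.50 and 1.13, and Svopl with -1.74 and 1.003. For Adamts4 the signals were 280 with RA and 615 in control in the proximal part and 1135 with RA and 406 in control in the distal part. Its second proximal probe set gave 1.42, so that its probe sets were 2-fold in opposite directions within the proximal part. The proximal signals of these 7 genes were at most 615.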

How the results depend on the processing

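No paired analysis was possible because the proximal RA and control groups have 1 array each, a single pair, and no array could be left out. A fit over both parts with the part as a block would average them and was not made. Scaling each array by its median kept all 103 named 2-fold genes at 2-fold, quantile normalization 97, removal of the signal trend 99, no floor with a pseudocount of 16 101 and a floor at the 25th percentile 103; a floor at the 75th percentile kept 52 of 76 and plain probe sets 83 of 90. The mean over probe sets kept 67 of 103. Of the 34 list medians, 32 kept their sign and side of 2-fold with median scaling and 32 with plain probe sets. The count was 30 with the 25th percentile floor, 30 with no floor and 27 without the signal trend. It was 27 with the mean over probe sets, 24 with quantile normalization, and 24 of 33 with the 75th percentile floor. Median scaling could change the named genes little, since it moved the median of all measured genes only from 0.01 to 0.03. The 426 higher and 784 lower genes became 163 and 306 with the 75th percentile floor, 247 and 379 with the mean over probe sets, 78 and 235 at 3-fold, and 1678 and 2032 at 1.5-fold; higher genes alone became 1371 with the 25th percentile floor and 849 with no floor. Genes with all probe sets higher, all lower and opposite (19, 56 and 46) became 8, 6 and 9 with the 75th percentile floor, 12, 37 and 23 with plain probe sets, 4, 14 and 1 at 3-fold, and 113, 238 and 409 at 1.5-fold; all higher and opposite became 85 and 193 with the 25th percentile floor and 35 and 88 with no floor. The share of higher genes among 2-fold genes was 35.2%, 38.0% with median scaling, 42.2% without the signal trend, 44.5% with quantile normalization, 47.0% with no floor and 54.5% with the 25th percentile floor, where 1146 genes were lower (959 with no floor). Crabp1 was at -0.02 after quantile normalization. Sign turned for Siva1 (-0.43), Ets1 (0.46) and Nr2c1 (-0.0075) with the mean over probe sets, and for Hoxa10 (0.17) and Mcm4 (0.48) with plain probe sets, where another probe set is read by construction. The median of distal limb genes was -0.88 under quantile normalization; the cause was not tested. With no floor, where members below the floor also count, the median of somite and body wall genes was 0.13.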

Other observations

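Cholesterol synthesis genes were lower in part: of 22 measured, 4 were 2-fold lower and 0 higher in the proximal RA sample, against 6.79% lower and 3.69% higher among all measured genes, with a median of -0.42, and the distal median was -0.46 with 0 genes 2-fold. Hsd17b7 had 356 with RA and 1022 in control proximal buds (-1.52), Nsdhl had 567 with RA and 1490 in control (-1.39), and Dhcr7, which makes the last step to cholesterol, had 2085 with RA and 4991 in control (-1.26); Insig1, a sterol sensor partner, had 2060 with RA and 4295 in control (-1.06). Hmgcs1, at the start of the pathway, was 0.83 at its brightest probe set and -2.004 at the lowest of its 5.

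Genes of p53 and stress responses had no common direction. Pmaip1, a p53 target that promotes apoptosis, was below the floor with RA (62.2) and had 314 in the proximal control, a bound of -2.32, while its distal difference was -1.08. Sesn1 had 286 with RA and 1264 in control (-2.15), with -0.14 at another of its 3 probe sets. Ddit3, a stress factor gene, had 809 with RA and 221 in control (1.87) and -0.31 at its second probe set, and Gadd45g had 425 with RA and 168 in control (1.34), with 1.42 in the distal part. Hspa1b, a heat shock gene, had 217 with RA and 1305 in control (-2.59) and -1.88 in the distal part, with -0.03, a bound, at a second proximal probe set. Of 26 proliferation genes, 1 was 2-fold higher (Myc, a bound of 1.09) and 3 lower (Ccne2, Mcm4 and Mcm5, with -1.70, -1.37 and -1.01), near the shares of all measured genes, and Mki67, a marker of cycling cells, differed by 0.72.

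Of extracellular matrix genes, Col5a2 had 1366 with RA and 569 in control (1.26, second probe set 0.42) and Postn had 145 with RA and 38.5, below the floor, in control (a bound of 1.18). Mmp14, a membrane protease gene, had 205 with RA and 525 in control (-1.36), with its 3 probe sets at -1.36 to -0.06. Col6a3 was below the floor with RA (56.4) and had 147 in control (a bound of -1.22).

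Probe sets whose names end in _x_at, which can match several transcripts, were 2-fold lower at 230 of 1316 (17.5%), against 1156 of 14910 (7.75%) for plain ones. Of 2819 measured probe sets with no listed gene, 248 were 2-fold higher and 165 lower.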
